A study of Mus musculus with 10 samples.

Results

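Lypd8, Lypd8l, Psca, Ly6d, Ly6a, Ly6c1 and Ly6e are 7 of the 56748 genes in an expression table of 10 mouse gastric tumours. All 7 belong to the Ly6/uPAR family of surface proteins. The set was selected on the data themselves, since Lypd8 and Lypd8l were among the largest rises from desert to inflamed tumours. The inflamed-minus-desert values of the 7 genes are therefore given as a description, with no test. Bulk RNA of each tumour was sequenced, and levels are given in FPKM, a read count that the authors scaled for gene length and library size.

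The 5 inflamed tumours carry the genotype Tff1-CreERT2;Apcfl/fl;Trp53fl/fl, in which an inducible Cre recombinase driven by Tff1, a gene of gastric surface (pit) cells, can delete the floxed tumour suppressors Apc and Trp53. The 5 desert tumours are orthotopic allografts, that is, tumour tissue or cells grafted into the stomach, with wild type given as the genotype. The sources used here do not say whether wild type refers to the host or to the graft, which alterations the graft carries or how old the mice were. Because every inflamed tumour has one model and genotype and every desert tumour the other, effects of type, model and genotype cannot be told apart. Tumours are numbered 1 to 5 within each type, with 1 library each. Nothing in the labels says how many animals or graft lines they came from, so the spread between them may be partly technical.

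Proteins of the Ly6/uPAR family share a compact fold of finger-like loops held together by disulfide bonds between conserved cysteines. Most are tethered to the outer leaflet of the cell membrane by a glycosylphosphatidylinositol (GPI) anchor, and a few are secreted. In the gut, Lypd8 is known as a heavily glycosylated protein of the colonic epithelial surface that binds flagellated bacteria and keeps them away from the epithelium. Psca, prostate stem cell antigen, is normally made in the surface epithelium of the stomach. Ly6a (Sca-1) marks blood stem cells and is induced by interferons, and Ly6c1 is found on endothelium and on T cell subsets. Ly6d marks early B-lineage progenitors and stratified epithelia, and Ly6e is a broadly expressed, interferon-inducible member.

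The membership can be read in the coding sequences. Each of the 7 has 1 copy of the signature that closes the fold, a pair of adjacent cysteine codons, 4 further codons, a cysteine codon and an asparagine codon. These 24 bases are shown to let the members be compared (5′ to 3′, from GENCODE M21 transcripts, cysteine codons in capitals).
Lypd8: TGCTGCcaaggagagtccTGCaat
Lypd8l: TGCTGCaccggtgagcagTGCaac
Ly6e: TGCTGCcaaagctccttcTGCaac
Psca: TGCTGCtactctgacctgTGCaat
Ly6d: TGCTGCcagactgacctaTGCaac
Ly6a: TGTTGCcaggaagacctcTGCaat
Ly6c1: TGTTGCagcgaagacctcTGCaat
The fifth codon of the signature encodes aspartate in Psca, Ly6d, Ly6a and Ly6c1, and does not in Lypd8, Lypd8l and Ly6e. The signature begins at base 292 of the coding sequence in Lypd8, Ly6a and Ly6e, at 304 in Lypd8l, at 283 in Ly6c1 and at 256 in both Ly6d and Psca. The coding sequences of Lypd8 (768 bases, 18 cysteine codons) and Lypd8l (663 bases, 19 cysteine codons) are the longest. The other 5 run from 372 bases in Psca to 444 in Ly6c1, with 10 to 13 cysteine codons. In global alignments of the 21 pairs, identical bases filled 34.6% to 66.9% of the columns. The highest value was that of Ly6a and Ly6c1, and Lypd8 with Lypd8l had 46.8%.

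How far such likeness could mix reads between genes was measured with windows of 50 bases from the transcripts. Lypd8 shared 0 of its 1281 windows with any other gene, and Lypd8l 0 of 971. Psca, Ly6d and Ly6e also shared 0. Ly6a shared 246 of 1297 windows (19.0%), among others with Ly6c1, and Ly6c1 shared 578 of 1764 (32.8%), mostly with Ly6c2. The levels of Ly6a, Ly6c1 and Ly6c2 are uncertain to that extent, because the sources used here do not say how the authors assigned reads that match several genes.

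Lypd8 and Lypd8l, which differ alike between the tumour types, are the pair whose promoters are shown, as 250 bases before and 50 bases after the RefSeq start (build GRCm38.p6). For Lypd8 this is the first of its 2 starts, chr11:58378782-58379081 on the plus strand. For Lypd8l, listed by RefSeq under an older symbol and matched through its Ensembl identifier, it is chr11:58613443-58613742 on the minus strand. Capitals mark matches to the TATA box motif TATANA.
Lypd8: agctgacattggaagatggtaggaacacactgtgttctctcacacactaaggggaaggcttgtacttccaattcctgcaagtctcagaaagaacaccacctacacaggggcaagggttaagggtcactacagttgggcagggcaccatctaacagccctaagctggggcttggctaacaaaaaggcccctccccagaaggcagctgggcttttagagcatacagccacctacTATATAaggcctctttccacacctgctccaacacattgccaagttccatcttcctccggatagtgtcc
Lypd8l: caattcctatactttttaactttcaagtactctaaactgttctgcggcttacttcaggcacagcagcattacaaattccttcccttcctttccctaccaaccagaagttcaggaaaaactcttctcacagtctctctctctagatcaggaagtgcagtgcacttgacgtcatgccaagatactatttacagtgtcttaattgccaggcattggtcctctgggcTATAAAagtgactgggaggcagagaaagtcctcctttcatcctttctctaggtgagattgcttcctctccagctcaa
The motif begins 18 bases before the start in Lypd8 and 27 bases before it in Lypd8l. Of 32851 mouse promoters of this length, 24.7% hold it on either strand. RefSeq promoters were matched for 3 of the 7 members (5 promoters, since Lypd8 and Ly6c1 have 2 starts each). The first Ly6c1 promoter holds the TATA motif 143 bases before its start. None of the 5 windows holds the interferon-gamma activated site TTCNNNGAA (8.3% of all promoters), the core of the interferon-stimulated response element (3.44%) or the CDX motif TTTATG (11.9%). The GATA motif AGATAA (11.2%) lies in the second Lypd8 window alone. Motifs were searched on both strands, and these are matches of letters only.

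Lypd8 (ENSMUSG00000013643, chromosome 11, 58269869 to 58281554 on the plus strand in the deposited table) was abundant in every inflamed tumour and nearly absent from every desert tumour. Its level was 329.7, 733.5, 599.9, 1672 and 1528 FPKM in inflamed tumours 1 to 5. In desert tumours 1 to 5 it was 0.0508, 0.0458, 0, 0 and 0 FPKM. Tumours 4 and 5 stood highest among the inflamed, and the types did not overlap. The means were 973 ± 593 and 0.0193 ± 0.0265 FPKM (SD, n = 5 each). In reads, the 5 inflamed libraries held 101593 and the 5 desert libraries 2 in all, with an exact 95% Poisson interval of 0.242 to 7.22 that covers counting error only. The inflamed-minus-desert difference on log2(FPKM + 1) was 9.65 ± 0.44 (SE). The added 1 compresses this value for a gene near 0: it was 12.77 with 0.1 added, and neither value bounds the true ratio.

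Lypd8l (ENSMUSG00000037145, chromosome 11, 58499030 to 58506901 on the minus strand in the table), the Lypd8-like gene, was the most abundant of the 7 in inflamed tumours. It stood at 1203, 1099, 1150, 2165 and 2314 FPKM in inflamed tumours 1 to 5. That placed it between the 10th and the 18th most abundant gene of each inflamed library, while Lypd8 ranked 15th to 80th. Desert tumours 1 to 5 had 0.0466, 0.421, 0, 0 and 0.0377 FPKM. Of the 12 desert reads (95% interval 6.2 to 21.0), 10 came from tumour 2, and without it the desert mean fell from 0.101 ± 0.180 to 0.0211 ± 0.0246 FPKM (SD, n = 4). The inflamed mean was 1586 ± 599.7 FPKM, and the log2 difference was 10.43 ± 0.26 (SE). Lypd8l exceeded Lypd8 in all 5 inflamed tumours. The ratio of the pair was 3.65, 1.498, 1.92, 1.30 and 1.51 in tumours 1 to 5, so it was highest in tumour 1, where Lypd8 was lowest.

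**Figure D1:**
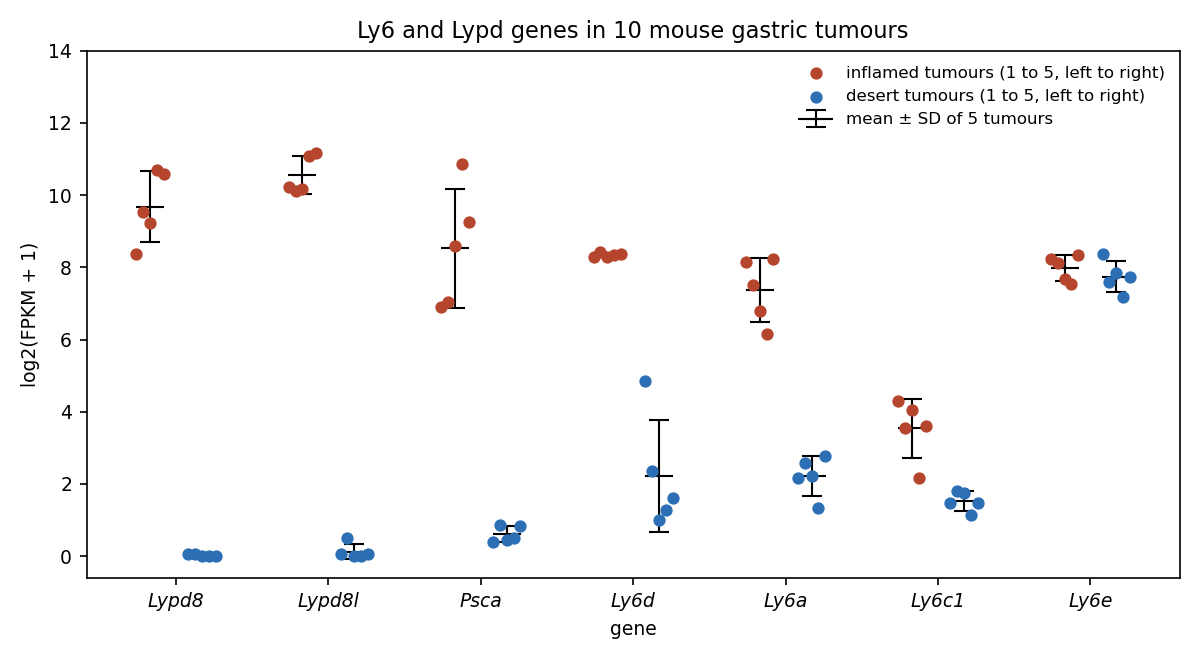
Level of each of the 7 genes in every tumour, on a log2(FPKM + 1) axis, with 1 point per tumour and a bar at the group mean for 5 inflamed and 5 desert tumours. Lypd8 and Lypd8l run from 329.7 to 2314 FPKM in inflamed tumours and reach at most 0.421 FPKM in desert tumours, whereas the Ly6e points of the types overlap.

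Psca (ENSMUSG00000022598, chromosome 15, 74586688 to 74588918, plus strand) was the most uneven member among inflamed tumours. It measured 118.1, 131.3, 382.2, 1873 and 614.4 FPKM in inflamed tumours 1 to 5, and 0.303, 0.821, 0.361, 0.428 and 0.797 FPKM in desert tumours 1 to 5. The types did not overlap, and inflamed tumour 4 alone was far above the rest. The inflamed mean of 624 ± 727.5 FPKM (SD, n = 5) became 311.5 ± 235.6 (n = 4) without it, against 0.542 ± 0.248 in desert tumours. The log2 difference was 7.92 ± 0.75 (SE).

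Ly6d (ENSMUSG00000034634, chromosome 15, 74633905 to 74635469, minus strand) was the most even member among inflamed tumours, though not among desert tumours, where its coefficient of variation (SD over mean) was 159.1% against 45.7% for Psca. Its inflamed values were 312.7, 341.3, 312.2, 322.4 and 331.9 FPKM, a coefficient of variation of 3.87%. Of 362 genes with an inflamed mean of at least 100 FPKM, 3 had a lower coefficient and the median was 16.3%, whereas 11 had a higher one than Psca (117%). The desert values were 28.1, 4.11, 1.002, 1.41 and 2.06 FPKM, with tumour 1 far above the others. The desert mean was 7.34 ± 11.7 FPKM (SD, n = 5), and 2.15 ± 1.38 (n = 4) without tumour 1. The log2 difference was 6.12 ± 0.70 (SE), and the types did not overlap.

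Ly6a (ENSMUSG00000075602, chromosome 15, 74866726 to 74869880, minus strand) measured, over inflamed tumours 1 to 5, 282.4, 180.3, 109.0, 70.4 and 297.3 FPKM. Its desert values were 3.46, 4.93, 3.66, 1.53 and 5.91 FPKM. Tumours 1 and 5 were highest and tumour 4 lowest among the inflamed, and the types did not overlap. The means were 187.9 ± 101.2 and 3.90 ± 1.66 FPKM (SD, n = 5 each), with a log2 difference of 5.15 ± 0.47 (SE).

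Ly6c1 (ENSMUSG00000079018, chromosome 15, 74915867 to 74920679, minus strand) was the least abundant member in inflamed tumours, at 18.7, 10.7, 15.6, 3.53 and 11.3 FPKM. Desert tumours 1 to 5 had 1.79, 2.49, 2.37, 1.19 and 1.79 FPKM. The lowest inflamed value, again in tumour 4, lay just above the highest desert value, in tumour 2. The log2 difference was 2.01 ± 0.39 (SE). Ly6a exceeded Ly6c1 by 17.1 ± 7.07 times in inflamed and by 2.01 ± 0.776 times in desert tumours (SD, n = 5 each). The ratio ran from 6.98 to 26.3 in inflamed and from 1.28 to 3.30 in desert tumours, without overlap.

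Ly6e (ENSMUSG00000022587, chromosome 15, 74826900 to 74831752, plus strand) was at a high level in all 10 tumours. It measured 301.6, 276.6, 202.5, 183.8 and 320.6 FPKM in inflamed and 330.2, 191.1, 227.8, 144.9 and 210.6 FPKM in desert tumours 1 to 5. The highest value of all was a desert one, and the types overlapped. The means were 257 ± 60.7 and 221 ± 68.5 FPKM (SD, n = 5 each). The log2 difference of 0.24 ± 0.25 (SE) was within the spread between tumours, and its sign depended on the scaling, at -0.06 after rescaling to TPM and -0.05 after quantile normalization.

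Inflamed and desert values did not overlap for 6 of the 7 members, all higher in inflamed tumours. Of the 16750 genes tested, 24.4% were likewise higher without overlap. Since the set was picked on this contrast, nothing is read from that count. Summed over the 7 genes, inflamed tumours had 2567 to 6291 FPKM, or 0.902% to 1.77% of the total of each library. Desert tumours had 149.4 to 364 FPKM in sum (0.0631% to 0.135%), most of it from Ly6e.

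The order of the levels changed between the types. In inflamed tumours the means fell from Lypd8l through Lypd8, Psca, Ly6d, Ly6e and Ly6a to Ly6c1. Neighbours kept that order in all 5 tumours except Lypd8 over Psca (4 of 5) and Psca over Ly6d (3 of 5), which are not separated beyond their spread. In desert tumours Ly6e came first, followed by Ly6d, Ly6a, Ly6c1, Psca, Lypd8l and Lypd8. There Ly6d exceeded Ly6a in 1 of 5 tumours and Lypd8l exceeded Lypd8 in 2 of 5, and the other neighbours held in all 5.

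Among inflamed tumours the members did not all vary together. Lypd8, Lypd8l and Psca were each highest in tumours 4 and 5, and Ly6a and Ly6e fell in the same order (tumours 5, 1, 2, 3 and 4). Tumour 4 had the highest Lypd8 (1.72 times its inflamed mean) and Psca (3.00 times), and the lowest Ly6a (0.375 times), Ly6c1 (0.295 times) and Ly6e (0.715 times). Tumour 1 had the lowest Lypd8 (0.339 times) and Psca (0.189 times) and the highest Ly6c1 (1.56 times). Tumour 5 was highest for Lypd8l (1.46 times), Ly6a (1.58 times) and Ly6e (1.25 times). Total FPKM was highest in tumour 4, at 356100 against 280800 to 312700 in the other inflamed tumours, and the values were not rescaled for this. A small lead of tumour 4, such as that of Lypd8 over tumour 5 (1672 and 1528 FPKM), need not hold after rescaling. The same limit applies to all later rankings among the inflamed tumours.

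**Figure D2:**
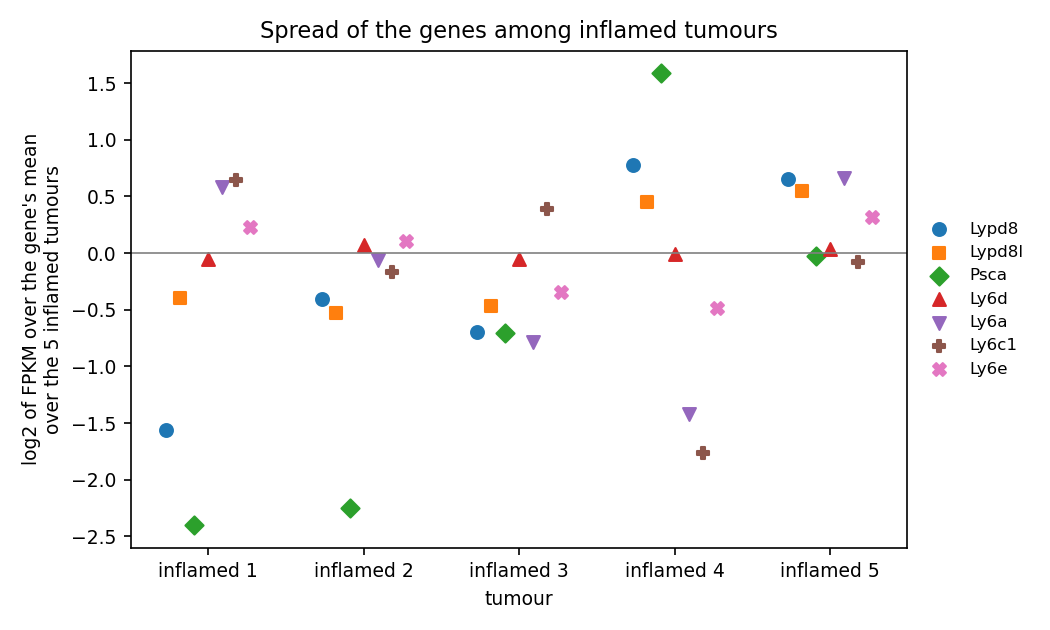
Level of each member in inflamed tumours 1 to 5, relative to its own inflamed mean on a log2 axis, with 1 point per tumour. Tumour 4 is above the mean for Lypd8, Lypd8l and Psca (3.00 times) and below it for Ly6a, Ly6c1 and Ly6e, while Ly6d stays close to its mean in every tumour.

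Markers of cell types the tumours could hold differed between the types and among the inflamed tumours. Calls are limma calls at an adjusted p under 0.05, by which 31.0% of all genes tested were higher and 31.2% lower in inflamed tumours. Gastric pit cell markers (6 genes, led by Gkn2 and Gkn1) summed to 3493, 5050, 6720, 32690 and 11190 FPKM in inflamed tumours 1 to 5 and to 4.64 to 14.5 in desert tumours; all 6 were tested and 4 were higher in inflamed tumours. The order of these sums over the inflamed tumours was the order of Psca. Gkn3, which gave 2173 FPKM of the sum in inflamed tumour 1, was nearly even over the inflamed tumours (2160 to 2467 FPKM). Keratins and other markers of squamous forestomach epithelium (8 genes, led by Krt13 and Krtdap) summed to 341.7 FPKM in inflamed tumour 4 and to 6.52 to 11.7 in the other inflamed tumours, against 3.98 to 9.55 in desert tumours. The desert sums were nearly all Sbsn (3.64 to 9.32 FPKM), which was at 0.944 to 3.15 FPKM in inflamed tumours. Of the 7 squamous markers tested, 2 were higher and 1 lower in inflamed tumours, and Krt5 was listed at 0 in all desert tumours. Markers of colonic and intestinal epithelium (10 genes) summed to 194.2 to 422.7 FPKM in inflamed and 2.07 to 8.42 in desert tumours, nearly all of it from Krt20 and Vil1. Only 2 of the 10 genes were tested, and both were higher. Among the untested, Car1 was at 0 in all 10 tumours, and Cdx2 and Ceacam20 in all desert tumours. Car4 and Slc26a3 reached higher values in inflamed tumours. Cdx1, Aqp8 and Muc2 reached higher values in desert tumours (up to 0.261, 0.206 and 1.25 FPKM) than in inflamed tumours (up to 0.136, 0.0773 and 0.834 FPKM).

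Blood, vessel and stromal markers differed as well, and the summed levels of all 5 such lists were lowest in inflamed tumour 4, as were Ly6a, Ly6c1 and Ly6e. T cell markers (9 genes) summed to 50.1, 23.1, 23.0, 18.3 and 46.7 FPKM in inflamed tumours 1 to 5. They summed to 2.65 to 8.65 FPKM in desert tumours, and 8 of 9 were called higher in inflamed tumours. Endothelial markers (8 genes) summed to 83.1, 78.8, 75.3, 32.2 and 48.5 FPKM in inflamed tumours, and to 22.3 to 37.9 in desert tumours, with 3 called higher and 1 lower. Monocyte and macrophage markers (8 genes) summed to 244.6, 149.8, 171.1, 79.9 and 320.3 FPKM in inflamed and to 76.2 to 227.6 in desert tumours, with 4 of 8 higher. Tumours 1 and 5 were the highest for T cell and for monocyte and macrophage markers, as they were for Ly6a and Ly6e. Neutrophil markers (7 genes) summed to 184.6, 172.6, 165.2, 8.13 and 23.9 FPKM in inflamed and to 0.931 to 1.83 in desert tumours, with 6 of 7 higher. Fibroblast markers (7 genes) summed to 277.7, 188.6, 196.9, 101.5 and 145.0 FPKM in inflamed and to 61.0 to 121.1 in desert tumours, with 4 of 7 higher. General epithelial markers ranged from 3325 to 6327 and from 1535 to 2241 FPKM, with 4 of 7 higher and 1 lower. The part of any of these cell types in the member levels was not tested. In bulk RNA, fewer cells of a type and less RNA per cell cannot be told apart.

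The profile over all 10 tumours gave another view of each member. Genes were ranked by the root mean square difference of log2(FPKM + 1) after centring each gene on its own mean, among 13718 named genes. Lypd8 and Lypd8l were nearest to each other, at 0.552. Next to Lypd8 came Gkn3 (0.708), Sprr2a3 (0.811), Anxa10 (0.863) and Gkn1 (0.877), and next to Lypd8l came Gkn3 (0.663), Pigr (0.791), Dmbt1 (0.849) and Gkn1 (0.943). Gkn1 and Gkn3 are gastrokines, secreted by the gastric epithelium, and Pigr carries IgA across epithelia. Psca was nearest to Sprr2a1 (0.332), Sprr2a2 (0.379), both small proline-rich proteins of the epithelial envelope, and Anxa10 (0.481). Ly6d was nearest to Lrg1 (0.786), Cldn2 (0.878) and Plet1 (0.971), and Ly6a to the complement gene C4b (0.342), Plet1 (0.421) and H2-DMb1 (0.530), which serves antigen loading. Ly6c1 was nearest to Ms4a4d (0.170), Srgn (0.201) and Tnfaip2 (0.263), and Ly6e to Egflam (0.159), Cd47 (0.162) and Def6 (0.168). The distance takes in the difference between the types as well as the spread within them, rests on the same 10 tumours for every gene and carries no test.

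The members lie in 2 places of the genome. Lypd8 and Lypd8l bound a stretch of 237.0 kb on chromosome 11 with 14 protein-coding genes in the table. The 12 between them, mostly olfactory receptor genes and including the family member Lypd9, all missed the filter of a mean of 0.5 FPKM over the 10 tumours. The other 5 members lie on chromosome 15 in the Ly6 cluster, 884.6 kb from Psca to Gpihbp1 with 25 protein-coding genes, of which 14 passed the filter. Of the 9 tested genes there that are not members, 6 were called higher and 1 lower in inflamed tumours, beside 31.0% and 31.2% of all genes tested. Slurp1, Slurp2, Ly6k, Ly6m, Ly6c2 and Ly6g2 had desert means under 0.5 FPKM and passed the filter through the inflamed tumours. The count therefore describes these 9 genes and not the cluster. Ly6e, whose values overlapped between the types, lies inside this stretch, with Ly6m the nearest tested gene before it and Ly6a the nearest after it.

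**Figure D3:**
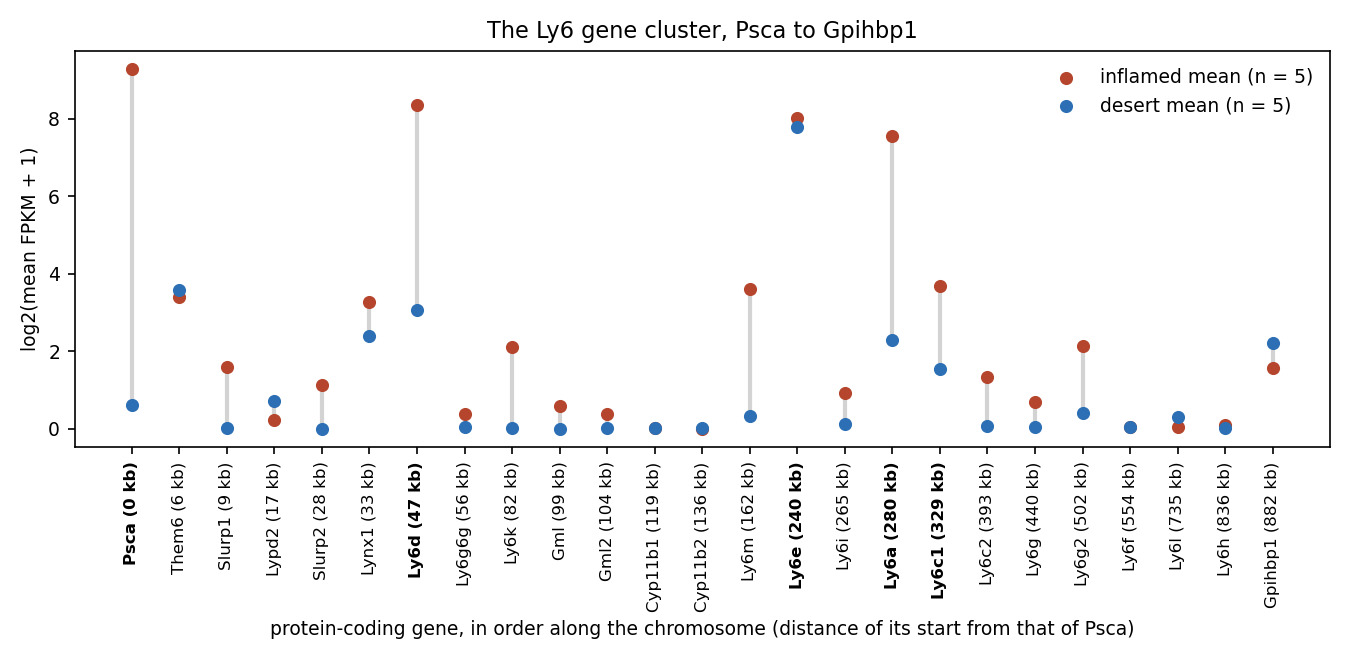
Mean level of each protein-coding gene of the Ly6 cluster, in its order along chromosome 15, as log2(mean FPKM + 1) in inflamed and desert tumours (n = 5 each, no error bars). Psca, Ly6d and Ly6a stand far above their desert level, whereas the 2 means of Ly6e (257 and 221 FPKM) nearly coincide and many genes between them are close to 0.

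The rest of the family was then tested, with limma over all genes and Benjamini-Hochberg adjusted p under 0.05 as the call. Of all 16750 genes tested, 62.2% were called in either direction. After rescaling to TPM, which moves the median of all genes from -0.01 to -0.28 on the log2 scale, 3769 genes were higher and 6989 lower. Of 37 other Ly6/uPAR genes, 17 passed the filter. Of these, 14 were called higher, 1 was called lower and 2 did not pass, with a median log2 difference of 1.499 against -0.01 over all genes tested. The counts were also 14 and 1 after TPM or quantile scaling. Since low genes pass this filter through the group in which they are high, the count describes these 17 and not the family.

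**Figure D4:**
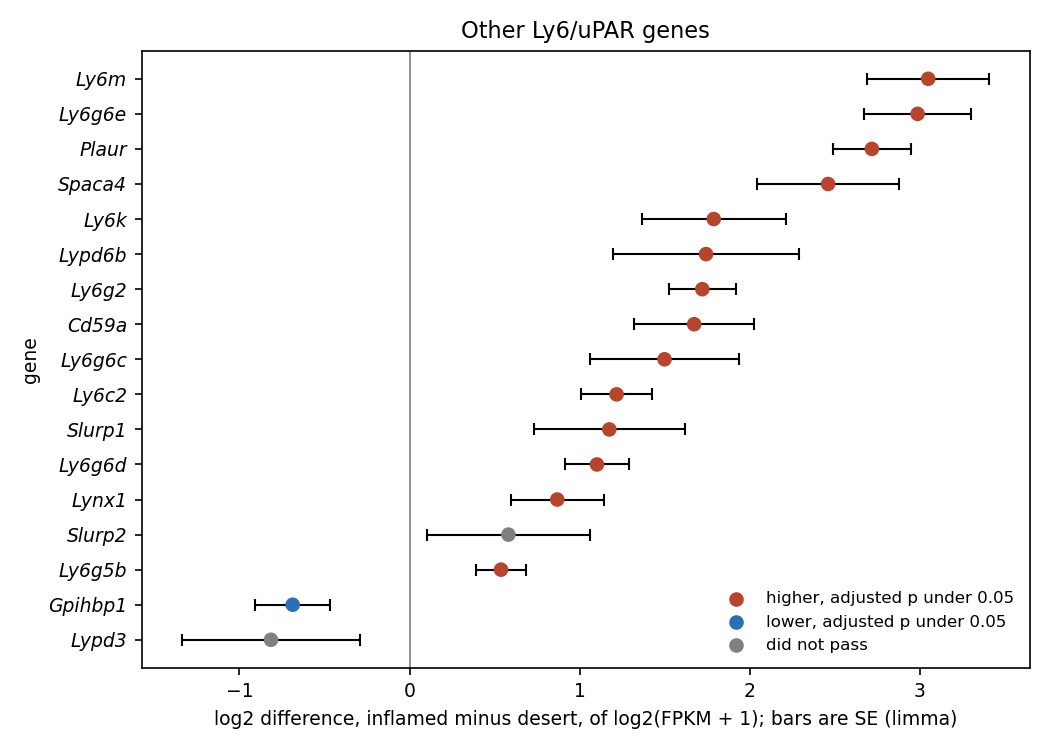
Inflamed-minus-desert difference on log2(FPKM + 1) for the 17 other Ly6/uPAR genes that passed the filter, with the limma standard error as bars (5 tumours per type). Differences run from 3.05 for Ly6m to -0.81 for Lypd3, and 15 of the 17 are above 0.

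On chromosome 15, 6 of 8 tested non-member family genes were called higher, beside 31.0% of all genes tested. Of the 8, Ly6m, Ly6k, Ly6g2, Ly6c2, Slurp1 and Slurp2 had desert means under 0.5 FPKM and passed the filter through the inflamed tumours. The count and the adjusted p-values of these genes are therefore a description. From desert to inflamed tumours Ly6m rose by 3.05 ± 0.36 (SE) on the log2(FPKM + 1) scale, from 0.252 ± 0.0948 to 11.3 ± 8.71 FPKM (SD, n = 5 each, limma adjusted p = 2.9e-05). Ly6k, a gene known from testis, rose from 0.0142 ± 0.0318 to 3.30 ± 2.86 FPKM (limma adjusted p = 0.00352). Ly6g2 rose from 0.320 ± 0.286 to 3.39 ± 1.12 FPKM, and Ly6c2, which shares transcript windows with its neighbour Ly6c1, from 0.0419 ± 0.0258 to 1.52 ± 0.738 FPKM. Lynx1, a modulator of nicotinic acetylcholine receptors, rose from 4.26 ± 1.88 to 8.60 ± 3.63 FPKM (limma adjusted p = 0.0169), with overlap between the types.

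The secreted proteins Slurp1 and Slurp2, known from skin, were less firmly called. Slurp1 averaged 2.01 ± 2.76 FPKM in inflamed and 0.0148 ± 0.0235 in desert tumours (SD, n = 5 each, limma adjusted p = 0.038). Its call was lost without inflamed tumour 5 or without any 1 of the desert tumours (adjusted p 0.0609 to 0.0836; 0.00326 to 0.0836 over all alternatives), and without inflamed tumour 4 the inflamed mean was 0.837 ± 0.961 FPKM (n = 4) and the gene missed the filter. Slurp2 was at 5.79 FPKM in inflamed tumour 4, at most 0.104 in the other inflamed tumours and listed at 0 in all desert tumours, and did not pass (limma adjusted p = 0.312). Gpihbp1, which holds lipoprotein lipase on capillary endothelium, fell from 3.62 ± 0.908 to 1.94 ± 0.915 FPKM (limma adjusted p = 0.0178), the only one of the 17 called lower.

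Outside the cluster, Plaur, the urokinase receptor, was the most abundant of the 17. It rose from 5.13 ± 2.24 to 37.4 ± 4.86 FPKM (SD, n = 5 each), a log2 difference of 2.72 ± 0.23 (SE, limma adjusted p = 2.4e-06), with no overlap. Cd59a, an inhibitor of the complement membrane attack complex, rose from 3.27 ± 1.54 to 13.2 ± 5.44 FPKM, although the types overlapped (limma adjusted p = 0.00168). Spaca4, known from gametes, rose from 1.25 ± 1.11 to 11.9 ± 8.88 FPKM, and Lypd6b from 2.87 ± 3.21 to 10.6 ± 7.81 FPKM. The Lypd6b values overlapped, and its desert mean was 1.52 ± 1.26 FPKM (n = 4) without desert tumour 5, which had 8.28. Lypd3, a gene of squamous epithelium, was at 2.66 ± 3.78 and 4.41 ± 2.87 FPKM and did not pass (limma adjusted p = 0.198). Inflamed tumour 4 alone held 9.40 FPKM of it, the others 0.684 to 1.25, and without that tumour Lypd3 was called lower (log2 difference -1.30, adjusted p = 0.00946; 0.00946 to 0.386 over all alternatives).

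The 4 tested family genes of the major histocompatibility complex region were called higher, beside 31.0% of all genes tested. Ly6g5c, also of this region, missed the filter. Ly6g6e rose from 0.583 ± 0.165 to 13.2 ± 8.44 FPKM (SD, n = 5 each), Ly6g6d from 0.995 ± 0.369 to 3.32 ± 0.956, and Ly6g5b from 0.638 ± 0.243 to 1.38 ± 0.390. Ly6g6c rose from 0.283 ± 0.189 to 3.78 ± 4.78 FPKM, of which tumour 4 had 12.3. The inflamed mean of Ly6g6c was 1.66 ± 0.715 (n = 4) without that tumour. The desert mean of this gene was under 0.5 FPKM, so it passed the filter through the inflamed tumours and its call is a description.

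Inflamed tumour 4 had the highest inflamed value of 10 of the 17 genes and the lowest of 4. Among all genes tested it was the highest inflamed tumour for 27.2%. The squamous marker sum of 341.7 FPKM in that tumour is given beside these values, and its part in them was not tested.

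The other 20 family genes were below the filter, and 3 of them (Lypd4, Lypd9 and Lypd11) were listed at 0 in every tumour. The highest single value among the 20 was 2.40 FPKM, of Lypd2 in desert tumour 4. Ly6g and Ly6i were singled out after their values were seen. Ly6g, the classical neutrophil marker, had 0.844, 1.51, 0.668, 0.0697 and 0 FPKM over inflamed tumours 1 to 5, where the neutrophil list summed to 184.6, 172.6, 165.2, 8.13 and 23.9 FPKM. Ly6i was at 2.16, 0.257, 0.148, 0.0568 and 1.80 FPKM in the same tumours, highest in tumours 1 and 5 as was Ly6a, with which it shares transcript windows.

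Most of these proteins need a GPI anchor, so the genes that build, attach and remodel it were compared. Of 28 listed genes, 27 were found and tested. In inflamed tumours 11 were called higher, 7 lower and 9 did not pass, with a median log2 difference of 0.14, beside 31.0% higher and 31.2% lower among all genes tested; after rescaling to TPM the counts were 4 and 11. Pgap1, which remodels the anchor's inositol in the endoplasmic reticulum, rose from 0.963 ± 0.254 to 5.75 ± 1.39 FPKM (SD, n = 5 each, limma adjusted p = 2.7e-06). Pgap2 rose from 4.63 ± 0.531 to 10.4 ± 1.02 FPKM and Pigg from 2.94 ± 0.410 to 5.54 ± 0.527 FPKM. Pigm, a mannosyltransferase, fell from 12.1 ± 1.44 to 6.996 ± 0.471 FPKM (limma adjusted p = 4.1e-05). Pigl fell from 6.63 ± 0.631 to 4.36 ± 0.608 FPKM. The 2 most abundant genes, both subunits of the transamidase that attaches the anchor, moved in opposite directions. Pigt was called higher, at 43.2 ± 2.24 against 33.4 ± 1.73 FPKM, a call lost after rescaling to TPM (adjusted p = 0.517; 0.000783 to 0.517 over all alternatives). Pigs was called lower, at 29.1 ± 2.49 against 42.2 ± 8.10 FPKM.

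Because Ly6a and Ly6e are known interferon targets, 22 other interferon-stimulated genes were set beside them. Of these, 16 were called higher, none lower and 6 did not pass, with a median log2 difference of 1.92, against 31.0% higher among all genes tested; after rescaling to TPM 1 was lower. At an unadjusted limma p under 0.05, 0 were lower, and voom on reads called 0 lower. The guanylate-binding protein gene Gbp2 rose from 1.54 ± 0.994 to 138 ± 84.0 FPKM (SD, n = 5 each, limma adjusted p = 8.9e-07). Over inflamed tumours 1 to 5 Gbp2 was at 175.7, 68.8, 130.9, 54.5 and 260.4 FPKM, highest in 5 and 1 and lowest in 4, as Ly6a was. The list did not share that order: of its 22 genes, 19 were highest in tumour 5, but 16 were lowest in tumour 3 and 5 in tumour 4. Gbp3 rose from 1.48 ± 1.20 to 42.7 ± 23.9 FPKM and Oasl1 from 1.77 ± 1.40 to 59.9 ± 35.1 FPKM. Oasl1 and Oas2 were highest in tumour 4, where Ly6a was lowest. For Oas2 the lead over tumour 5 was small (26.6 and 24.4 FPKM) and need not hold after rescaling, since total FPKM was highest in tumour 4. Bst2, which tethers budding virus particles, overlapped between the types as Ly6e did, at 78.4 ± 45.7 and 51.2 ± 32.5 FPKM (limma adjusted p = 0.223).

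Lypd8 belongs to the epithelial defence against gut bacteria, and 16 other genes of that barrier were listed. Muc2, Ang4, Retnlb, Nlrp6 and Muc3 missed the filter. Muc2 averaged 0.472 ± 0.328 FPKM in inflamed and 0.462 ± 0.501 in desert tumours (SD, n = 5 each), and Ang4 was at 0 in all 10 tumours. Retnlb, Nlrp6 and Muc3 averaged 0.249 to 0.507 FPKM in inflamed and at most 0.00915 in desert tumours. Of the 11 tested, 10 were called higher, none lower and 1 did not pass, with a median log2 difference of 5.89, against 31.0% higher among all genes tested. For 7 of the 11 the desert mean was itself under 0.5 FPKM, so they passed the filter through the inflamed tumours and had to differ; the count describes these 11 only. At an unadjusted limma p under 0.05, 0 were lower, and voom called 0 lower, which was fixed in advance for those 7 and is no check on them. Pigr and Duox2 are among the 7, and their adjusted p-values are a description. Pigr rose from 0.0304 ± 0.0305 to 880 ± 350.5 FPKM (SD, n = 5 each, limma adjusted p = 5.3e-10). Duox2, which makes hydrogen peroxide at the epithelial surface, rose from 0.0155 ± 0.0306 to 103 ± 22.1 FPKM (limma adjusted p = 7.2e-11). Fcgbp, a mucus protein, rose from 0.221 ± 0.0984 to 121 ± 75.0 FPKM. Agr2, needed for mucin folding, rose from 11.1 ± 7.71 to 585 ± 193.5 FPKM. Over the inflamed tumours the 11 genes did not vary alike. Tumour 4, where the FPKM of Lypd8 was highest, was the highest for 4 of them (Zg16, Fcgbp, Clca1 and Duox2) and the lowest for 4 others (Reg3b, Reg3g, Pigr and Muc13). Duox2 was at 126.0 FPKM there and at 125.8 in tumour 5. Since total FPKM was highest in tumour 4, such small leads need not hold after rescaling. Tumour 2 was the highest for 5.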

How the data were processed

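Bulk RNA of 10 mouse gastric tumours (5 inflamed, 5 desert) came from TRIzol extracts, per the labels' protocols, which speak of 6 tumours although the series holds 10. The authors deposited FPKM values for 56748 genes. The sources used here name no aligner, counter, annotation or strand setting. Build mm10 is named in the submitters' processing notes. Gene starts of the 7 members differed by 109163 to 128151 bases from RefSeq on GRCm38.p6, so the table's positions are printed with no build named.

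FPKM multiplied by gene length gave whole multiples of 1 step per library (100% of values within 0.01 of a whole number), and so the reads. Libraries held 14148147 to 16951640 reads in genes. FPKM summed to 280800 to 356100 in each inflamed library and to 236900 to 269500 in each desert library. No 2 libraries agreed within sampling noise.

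Values were compared on log2(FPKM + 1), which understates changes of low genes, by limma 3.58.1 (R 4.3.3; two-sided test of tumour type with no covariate, robust moderation and intensity trend), for the 16750 genes whose mean FPKM over the 10 tumours reached 0.5. Adjustment was by Benjamini-Hochberg over all genes tested, with a threshold of 0.05. The SE given for the 7 members is from their own values. Alternatives were a pseudocount of 0.1, no filter, a mean FPKM of at least 5, TPM, quantile normalization, voom with TMM scaling on reads (genes averaging 10 or more), a block for tumour number and each tumour left out. The fits were also run on data simulated from desert levels, with far fewer changed genes than were called here. That run does not check the calls where so many genes differ. Sequences were read with Python 3.11.15, pandas 2.3.3 and Biopython 1.88.

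Named genes were the members, each other Ly6/uPAR gene that passed the filter, the 3 largest called changes in each direction and the 2 most abundant genes of each further list, and the 5 (Lypd8, Lypd8l) or 3 nearest profiles. The members and all lists were chosen with earlier results of these data known.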

Additional observations from a re-analysis of the deposited data

Results flagged for a closer look

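In 47 sets of 5 values (a gene in 1 tumour type), 12 had a highest value whose gap to the next, divided by the whole range, was above 0.71, the 95% limit for 5 samples. Chance gives about 1 in 20 for normally distributed values when gaps at either end are counted, and less for the highest value alone. FPKM values are skewed and some sets rest on a few reads, so that rate need not hold here. Of the 12, 7 were highest in inflamed tumour 4. Among the members these were Lypd8l in desert tumour 2 (0.4207 FPKM, others up to 0.0466), Ly6d in desert tumour 1 (28.12 FPKM, others 1.002 to 4.11) and Psca in inflamed tumour 4 (1873 FPKM, others 118.1 to 614.4).

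In inflamed tumour 4 the same held for Lynx1 (14.83 FPKM, others 5.83 to 8.12), Lypd3 (9.403, others 0.684 to 1.25), Lypd6b (24.2, others 4.34 to 9.20) and Spaca4 (27.6, others 5.86 to 9.40). It held there also for Ly6g6c (12.26 FPKM, others 1.05 to 2.64) and Slurp2 (5.787, others 0 to 0.104).

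In desert tumours, Ly6c2 reached 0.0859 FPKM in tumour 2 (others 0.0227 to 0.0385), Ly6m 0.4151 in tumour 5 (others 0.169 to 0.237) and Ly6k 0.071 in tumour 2 (others 0). These last values rest on a few reads each: 4 for Ly6c2, 26 for Ly6m and 1 for Ly6k.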

How the results depend on the processing

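Of 648 single-gene values under an alternative, 646 kept their direction, 9 lost a call and 1 gained one. Ly6e reversed to -0.0636 after rescaling to TPM and -0.0485 after quantile normalization. With a mean FPKM of at least 5, where fewer genes are tested, 2784 genes were higher and 3070 lower, with 7 other Ly6/uPAR genes higher and 0 lower, and 5 GPI anchor genes higher. After rescaling to TPM, 4 GPI anchor genes were higher and 11 lower, and 1 interferon-stimulated gene was lower. Leaving out each tumour gave 1 to 2 other Ly6/uPAR genes called lower, 2 (Gpihbp1 and Lypd3) without inflamed tumour 4. The log2 difference of Lypd8 and Lypd8l was 12.77 and 13.20 with a pseudocount of 0.1, and 14.53 and 14.66 with voom. Slurp1 was also not called without the filter (adjusted p = 0.0667; 0.00326 to 0.0836 over all alternatives).

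Tumours that share a number deviated together by a correlation of -0.0737 to 0.0763 and are different tumours, so the numbers do not pair them. With the tumour number as a block, 4958 genes were higher and 4967 lower, and 13 other Ly6/uPAR genes were higher and 1 lower; Lynx1 was no longer called (adjusted p = 0.0596; 0.00499 to 0.0596 over all alternatives). Depth limits the members at the low end: the 2 and 12 desert reads of Lypd8 and Lypd8l do not fix their desert levels.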
